A study of Mus musculus with 16 samples.

Results

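The genes described here make prostaglandins, break them down and carry the receptors that sense them: Pla2g4a, Ptgs1, Ptgs2, Ptges, Ptgds, Ptgis, Hpgd, Ptger1, Ptger3 and Ptger4. They were found by gene symbol in the probe annotation, with the brightest row kept for each gene. Of these 10 genes, 9 were measured under their own symbol, among 19938 genes tested. Ptgs1 is not analysed here. All 9 had a mean of at least 6 on the log2 scale over the 16 arrays.

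Prostaglandins are short-lived lipid messengers made from arachidonic acid. A phospholipase frees the acid from membranes, a cyclooxygenase turns it into an unstable intermediate, and terminal synthases turn that into prostaglandin E, D or prostacyclin. In the kidney, prostaglandin E helps to keep up blood flow and salt excretion when perfusion is low, and its receptors in tubules and vessels act through different second messengers.

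The data were log2 expression levels from halved kidneys of mice, with 1 single-colour whole-transcript array per labelled biological replicate. Every mouse, controls included, belonged to a transgenic line in which doxycycline removes Vhl from renal tubules through the Pax8-rtTA system. Vhl encodes the protein that marks hypoxia-inducible factors for destruction, and other kidney cells are not targeted. The VHL-KO/AKI group (n = 5) had doxycycline and glycerol, the AKI group (n = 5) glycerol without doxycycline, the VHL-KO group (n = 3) doxycycline alone, and the Control group (n = 3) no treatment. Doxycycline (0.1 mg for each 10 g of weight) was given under the skin 4 days before sacrifice. Glycerol (50%, 0.05 ml per 10 g) went into the muscle of the left hind limb, where it breaks down muscle and so injures the kidney (rhabdomyolysis). Water was withheld in both glycerol groups from 20 h before that injection until 24 h after it. Mice without doxycycline carry the genotype label wt. Both sexes were used, at 24 to 31 g. Age is not given in the labels. No group had doxycycline in mice that keep Vhl, and none had water withdrawal without glycerol, so each pair of factors cannot be told apart.

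Vhl averaged 6.50 ± 0.12 in VHL-KO/AKI kidneys and 7.16 ± 0.12 in AKI kidneys (SD, n = 5 each; adjusted p = 9.98e-05 in limma's moderated test). It averaged 6.65 ± 0.04 in VHL-KO kidneys and 7.06 ± 0.04 in Control kidneys (SD, n = 3 each; adjusted p = 0.0565). A list of 6 proximal tubule genes averaged between 10.37 and 12.11 on every array, and 4 adrenal genes between 4.50 and 4.90. Xist, which is transcribed from an inactive X chromosome, lay between 4.16 and 5.08 on all 10 arrays of glycerol-treated mice and between 10.23 and 11.47 on all 6 others. Injury and this sex-linked signal therefore cannot be told apart in any comparison of a glycerol group with an uninjured one, nor in the interaction described below. Control 3 carried both Xist (10.23) and Y-linked signal (mean of 3 genes 7.43). The array AKI 4 stood apart from its group, with a mean correlation to it of 0.973, against 0.988 or 0.989 for the other 4. Xist differed by -0.10 between VHL-KO/AKI and AKI kidneys (95% interval -0.47 to 0.26).

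The members did not move as a block. In AKI against Control kidneys, Ptgs2 and Ptger4 were higher, and Hpgd, Ptger1 and Ptger3 were lower. The other 4 genes, for release of arachidonic acid and for the last step of synthesis, did not pass the test. These 5 calls of 9 stand against 28.1% of all tested genes called in that comparison (13.2% higher and 14.9% lower). At an unadjusted p under 0.05 the same count of 5 members stands against 38.2%. In VHL-KO/AKI against AKI kidneys, Ptgs2 and Ptger4 were lower and Hpgd was higher, 3 of 9 against 3.88% of all tested genes (2.48% higher and 1.4% lower). At an unadjusted p under 0.05 there were 5 of 9, with Ptges and Ptger3 added, against 18.7%. A call means an adjusted p under 0.05 after Benjamini-Hochberg correction over all tested genes, in 1 limma fit of the 4 groups.

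**Figure D1:**
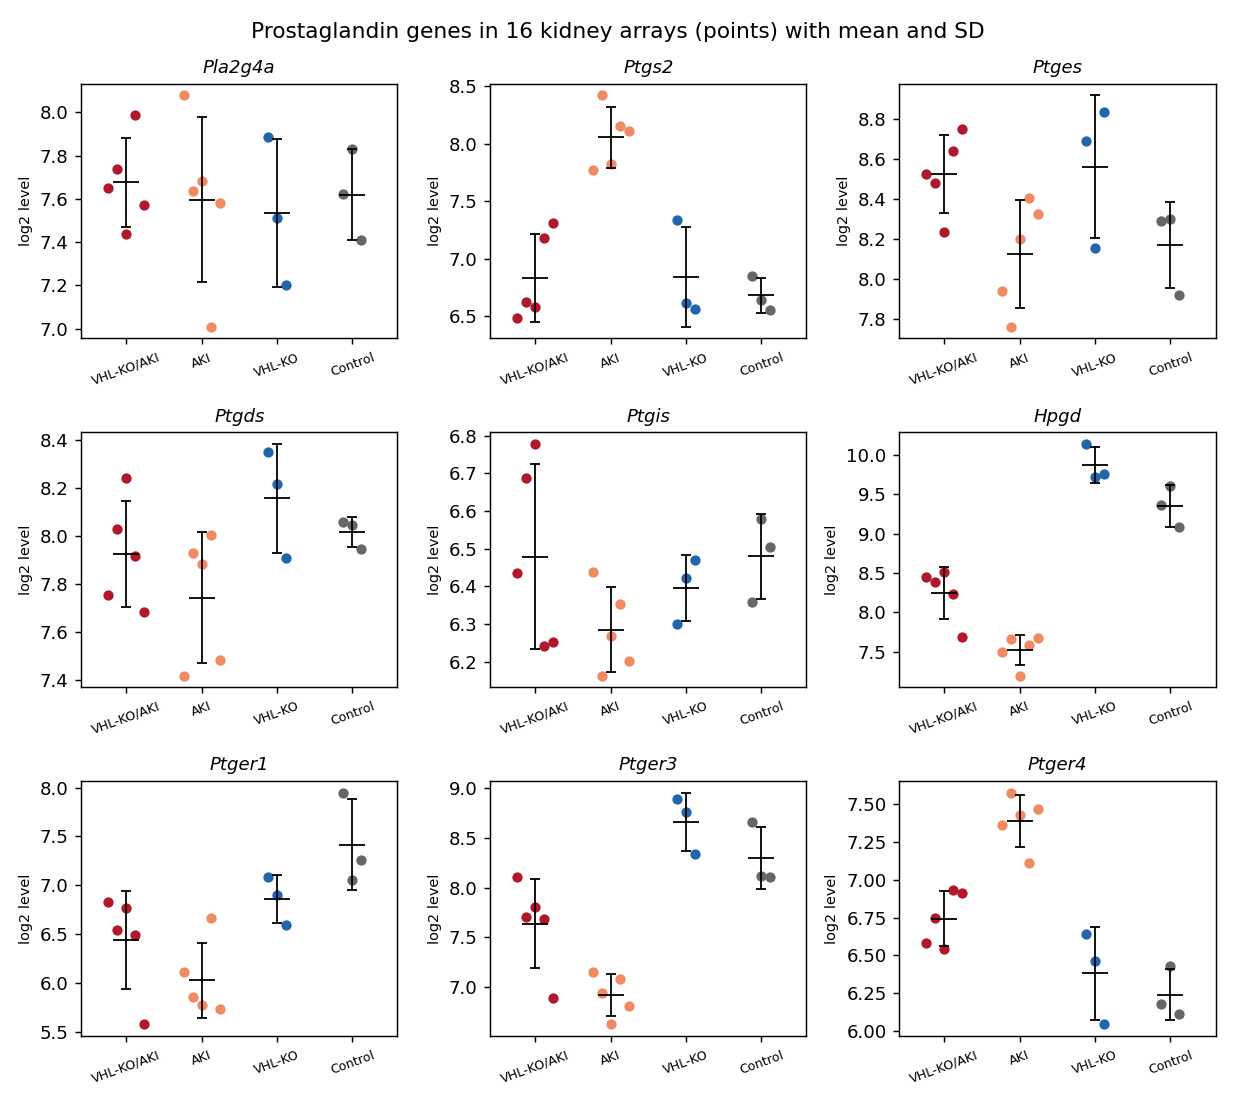
Log2 levels of the 9 prostaglandin genes in each array (points), with group mean and SD (bars), in VHL-KO/AKI, AKI, VHL-KO and Control kidneys. The 5 AKI points of Ptgs2, between 7.77 and 8.42, lie above every point of the other groups, and the Hpgd points of AKI kidneys lie lowest.

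Pla2g4a encodes the cytosolic phospholipase that frees arachidonic acid. Its log2 level averaged 7.68 ± 0.21 in VHL-KO/AKI, 7.60 ± 0.38 in AKI, 7.53 ± 0.34 in VHL-KO and 7.62 ± 0.21 in Control kidneys (SD). The 16 arrays spanned 7.01 to 8.08 and the 4 groups overlapped. The difference of AKI from Control was -0.02 (95% interval -0.45 to 0.41), which leaves a change of that width undetected at these sample sizes.

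Ptgs2 encodes cyclooxygenase 2, the inducible enzyme of the committed step, which in kidney is known from the macula densa, the thick ascending limb and interstitial cells. Its log2 level was 6.48, 6.63, 6.58, 7.19 and 7.31 in VHL-KO/AKI kidneys, against 7.77, 8.42, 7.83, 8.16 and 8.12 in AKI kidneys. It was 7.34, 6.62 and 6.57 in VHL-KO kidneys, and 6.85, 6.64 and 6.56 in Control kidneys. All 5 AKI arrays were higher than all 11 others, while the VHL-KO/AKI arrays overlapped both uninjured groups.

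Ptgs2 was thus 2.59-fold higher in AKI than in Control kidneys (log2 difference 1.38, SE 0.218, 95% interval 0.91 to 1.84, adjusted p = 0.000352). In VHL-KO/AKI kidneys it was 2.33-fold lower than in AKI kidneys (-1.22, SE 0.189, interval -1.62 to -0.82, adjusted p = 0.00375). This difference kept its call with each array left out in turn, at adjusted p between 0.00103 and 0.0154. Between VHL-KO/AKI and VHL-KO kidneys the difference was -0.00 (interval -0.47 to 0.46, adjusted p = 0.994), and between VHL-KO and Control kidneys 0.16 (adjusted p = 0.94).

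The interaction asks whether the VHL-KO difference in injured kidneys is unlike that in uninjured ones. Injured and uninjured arrays also differed in the sex-linked signal, so an interaction with injury and one with that signal cannot be told apart. For Ptgs2 it was -1.38 (SE 0.309, interval -2.04 to -0.72), with an unadjusted p of 0.000464 and an adjusted p of 0.116. In limma, 2 of the tested genes (0.01%) passed for the interaction, and no member was among them. At an unadjusted p under 0.05 there were 2387 genes (12%), with Ptgs2, Ptger4 and Ptger1 among them. The Ptgs2 interaction passed without AKI 4 (adjusted p = 0.0412) or without VHL-KO/AKI 5 (adjusted p = 0.0284). It did not pass with any other array left out, where the adjusted p rose as high as 0.284.

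The VHL-KO/AKI arrays 4 and 5, with the highest Ptgs2 of their group, also had the highest mean over 5 neutrophil genes, 5.68 each against 4.76 to 4.95 in the other 3. That mean lay between 5.43 and 6.52 in AKI, 4.62 and 4.73 in VHL-KO, and 4.59 and 4.74 in Control kidneys. Within the AKI group the order was reversed at both ends. AKI 2 had the highest Ptgs2 (8.42) and the lowest neutrophil mean (5.43). AKI 1 had the lowest Ptgs2 (7.77) and the highest neutrophil mean (6.52). All 5 neutrophil genes were higher in AKI than in Control kidneys, and 2 of 5 (S100a8 and S100a9) were lower in VHL-KO/AKI than in AKI kidneys. Over all tested genes, 13.2% were higher and 14.9% lower in AKI against Control, and 1.4% were lower in VHL-KO/AKI against AKI. None of the 5 neutrophil genes was at 0, since array values have a background floor. The mean over 6 fibroblast and smooth muscle genes ran from 7.75 to 7.96 in VHL-KO/AKI, 7.72 to 8.28 in AKI, 7.66 to 7.89 in VHL-KO and 7.58 to 7.77 in Control kidneys. Of these 6, 2 were higher and 1 lower in AKI than in Control kidneys, and 2 were lower in VHL-KO/AKI than in AKI kidneys. Tagln, a smooth muscle gene, was called in both comparisons (1.25 in AKI against Control, adjusted p = 0.000566, and -0.93 in VHL-KO/AKI against AKI, adjusted p = 0.0148), and Acta2, the smooth muscle actin gene, in the second (-0.57, adjusted p = 0.0273). The mean over 5 macrophage genes ran from 7.32 to 7.85 in VHL-KO/AKI, 6.96 to 8.12 in AKI, 7.07 to 7.90 in VHL-KO and 6.82 to 7.51 in Control kidneys. Cd14 (2.52) and Cd68 (1.93) were higher and Csf1r (-1.03) lower in AKI than in Control kidneys, and none of the 5 was called between VHL-KO/AKI and AKI. The part of these markers in the Ptgs2 result was not tested. In whole tissue, fewer cells of a type and less RNA per cell cannot be told apart. Nos1, a macula densa gene, lay between 4.75 and 5.14 on all 16 arrays, where dim probes lie.

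The 250 bases before the start of Ptgs2, Ptger4 and Hpgd are shown because these are the 3 members that differed between VHL-KO/AKI and AKI kidneys. They are RefSeq sequences of GRCm38.p6, read 5′ to 3′ on the gene's strand, at chr1:150099781-150100030 (plus strand) for Ptgs2, chr15:5244188-5244437 (minus strand) for Ptger4 and chr8:56294302-56294551 (plus strand) for Hpgd. Capitals mark matches, on either strand, to ACGTG or GCGTG (the core letters that hypoxia-inducible factors bind), CGTCA (the core of a cyclic AMP response element), TATAAA, or the NF-kB consensus.
Ptgs2: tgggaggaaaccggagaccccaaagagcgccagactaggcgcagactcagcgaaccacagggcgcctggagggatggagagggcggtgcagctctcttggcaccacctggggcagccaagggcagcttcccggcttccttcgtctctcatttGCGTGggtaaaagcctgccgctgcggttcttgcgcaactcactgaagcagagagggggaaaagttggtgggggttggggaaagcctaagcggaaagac
Ptger4: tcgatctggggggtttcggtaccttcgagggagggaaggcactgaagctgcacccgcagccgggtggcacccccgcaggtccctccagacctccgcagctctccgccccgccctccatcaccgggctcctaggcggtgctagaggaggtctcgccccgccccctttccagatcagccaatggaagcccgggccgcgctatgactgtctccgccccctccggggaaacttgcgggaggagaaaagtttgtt
Hpgd: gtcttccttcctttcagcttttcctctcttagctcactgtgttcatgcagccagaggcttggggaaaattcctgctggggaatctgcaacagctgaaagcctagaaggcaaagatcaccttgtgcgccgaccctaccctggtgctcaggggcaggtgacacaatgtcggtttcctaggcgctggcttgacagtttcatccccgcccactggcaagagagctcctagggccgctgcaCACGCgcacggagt

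In these windows, Ptgs2 holds GCGTG at position -98 on its own strand, counted from the annotated start. Hpgd holds GCGTG on the opposite strand, at -14, where it reads as its reverse complement, CACGC. Ptger4 holds none of the letters searched. No marked match overlaps another. Such letters are common: GCGTG occurred in 28.2% of 32851 mouse windows of this length, CGTCA in 17.8%, ACGTG in 16.6%, TATAAA in 12.4% and the NF-kB consensus in 7.25%. A match describes the letters and is not a binding site measured here. Of the 9 measured members, 7 had a window. GCGTG also occurred before Pla2g4a (-235), Ptges (-165) and Ptger3 (-222), and ACGTG before Ptger3 (-179). None of these genes was called between VHL-KO/AKI and AKI kidneys.

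No terminal synthase among the members passed the test in any comparison. Ptges encodes the microsomal prostaglandin E synthase that often works with cyclooxygenase 2. Its level averaged 8.52 ± 0.19 in VHL-KO/AKI, 8.13 ± 0.27 in AKI, 8.56 ± 0.36 in VHL-KO and 8.17 ± 0.22 in Control kidneys (SD). Both VHL-KO groups had the higher mean of their pair, and all 4 groups overlapped. The difference of VHL-KO/AKI from AKI was 0.40 (interval 0.08 to 0.72), with an unadjusted p of 0.0176 and an adjusted p of 0.159, and that of VHL-KO from Control was 0.39 (adjusted p = 0.63). Ptges therefore stood opposite in sign to Ptgs2 in the first of these comparisons, without passing the test.

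Ptgds makes prostaglandin D and Ptgis makes prostacyclin. Ptgds averaged 7.93 ± 0.22 in VHL-KO/AKI, 7.74 ± 0.27 in AKI, 8.16 ± 0.23 in VHL-KO and 8.02 ± 0.06 in Control kidneys. Ptgis stayed between 6.16 and 6.78 on all 16 arrays, with means of 6.48 ± 0.25 in VHL-KO/AKI and 6.28 ± 0.11 in AKI kidneys (SD, n = 5 each). Their lowest adjusted p-values were 0.208 for Ptgds and 0.242 for Ptgis, both in AKI against Control.

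Hpgd encodes the dehydrogenase that begins the inactivation of prostaglandin E. Its log2 level was 8.44, 8.38, 8.51, 8.23 and 7.69 in VHL-KO/AKI kidneys, and 7.50, 7.66, 7.20, 7.59 and 7.68 in AKI kidneys. It was 10.14, 9.72 and 9.76 in VHL-KO kidneys, against 9.37, 9.60 and 9.08 in Control kidneys. The 4 groups did not overlap in any pair compared and ran, high to low, VHL-KO, Control, VHL-KO/AKI and AKI. VHL-KO/AKI 5 was separated from the highest AKI array by 7.69 against 7.68.

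Hpgd was 3.54-fold lower in AKI than in Control kidneys (-1.83, SE 0.178, interval -2.21 to -1.45, adjusted p = 1.06e-05), the largest difference of any member in that comparison. It was 3.08-fold lower in VHL-KO/AKI than in VHL-KO kidneys (-1.62, SE 0.178, adjusted p = 6.85e-05). In VHL-KO/AKI kidneys it was 1.65-fold higher than in AKI kidneys (0.73, SE 0.154, interval 0.40 to 1.05, adjusted p = 0.0213). That call was lost without AKI 3 or without any of VHL-KO/AKI 1, 2 and 3, where the adjusted p ran from 0.0586 to 0.0687. Against Control, VHL-KO kidneys differed by 0.52 (interval 0.10 to 0.95), with an unadjusted p of 0.0194 and an adjusted p of 0.435. The interaction was 0.20 (adjusted p = 0.809).

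**Figure D2:**
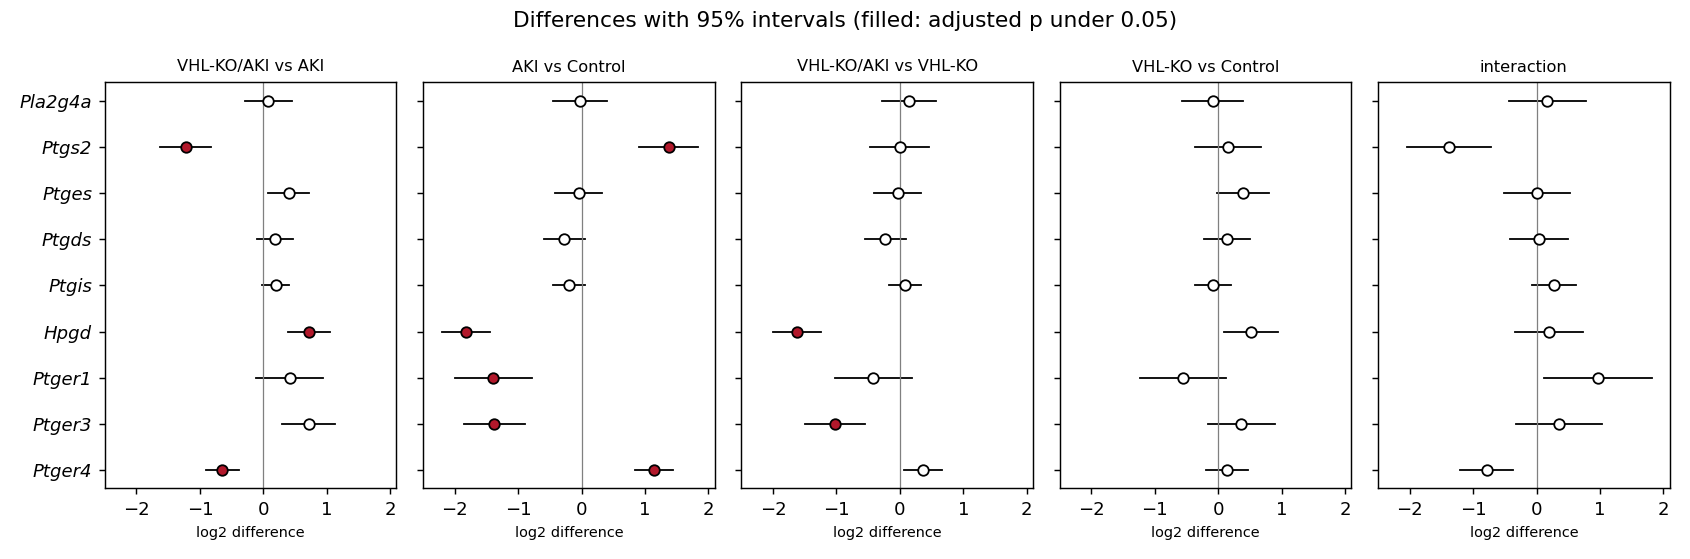
Log2 differences of the 9 prostaglandin genes (rows) in the 5 comparisons (panels), with 95% intervals, filled where the adjusted p is under 0.05. Ptgs2 and Ptger4 lie right of 0 in AKI against Control and left of 0 in VHL-KO/AKI against AKI, and Hpgd lies on the opposite sides.

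The receptors for prostaglandin E split by subtype. Ptger4 encodes EP4, which raises cyclic AMP and is known from renal vessels, juxtaglomerular cells and leukocytes. Its level was 6.58, 6.74, 6.54, 6.93 and 6.91 in VHL-KO/AKI kidneys, against 7.36, 7.57, 7.43, 7.11 and 7.46 in AKI kidneys. It was 6.64, 6.46 and 6.05 in VHL-KO kidneys, and 6.18, 6.43 and 6.11 in Control kidneys. Every AKI array was above every array of the other groups, and VHL-KO/AKI arrays were above Control but overlapped VHL-KO.

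Ptger4 was 2.21-fold higher in AKI than in Control kidneys (1.14, SE 0.139, interval 0.85 to 1.44, adjusted p = 5.24e-05). In VHL-KO/AKI kidneys it was 1.56-fold lower than in AKI kidneys (-0.64, SE 0.12, interval -0.90 to -0.39, adjusted p = 0.0104), and the call held with each array left out, at adjusted p between 0.00208 and 0.0369. Its difference between VHL-KO/AKI and VHL-KO kidneys was 0.36 (adjusted p = 0.102), and between VHL-KO and Control kidneys 0.14 (adjusted p = 0.909). The interaction was -0.78 (SE 0.196, unadjusted p = 0.00121, adjusted p = 0.146), and it passed without AKI 4 (adjusted p = 0.0355). It did not pass with any other array left out, where the adjusted p rose as high as 0.331. S100a8, S100a9 and Tagln, named beside Ptgs2, were also higher in AKI than in Control and lower in VHL-KO/AKI than in AKI kidneys. No other gene of the neutrophil, fibroblast and smooth muscle, and macrophage lists was called in both comparisons. Of 5 endothelial genes, 2 were lower and 0 higher in AKI than in Control kidneys, beside 14.9% and 13.2% of all tested genes. In VHL-KO/AKI against AKI 0 were called, beside 3.88% of all tested genes. The mean of the endothelial genes was 9.25 in VHL-KO/AKI, 9.13 in AKI, 9.85 in VHL-KO and 9.29 in Control kidneys. The part of these and the other markers given beside Ptgs2 in the Ptger4 result was not tested.

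Ptger3 encodes EP3, which lowers cyclic AMP and is known from the thick ascending limb and collecting duct, where it opposes vasopressin. Its level was 8.11, 7.71, 7.80, 7.68 and 6.89 in VHL-KO/AKI kidneys, and 7.15, 6.94, 6.62, 7.08 and 6.81 in AKI kidneys. It was 8.89, 8.77 and 8.34 in VHL-KO kidneys, and 8.66, 8.12 and 8.11 in Control kidneys. Every AKI array was below every uninjured one, and VHL-KO/AKI 5 lay among the AKI arrays while the other 4 lay above them.

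Ptger3 was 2.59-fold lower in AKI than in Control kidneys (-1.37, SE 0.224, interval -1.85 to -0.90, adjusted p = 0.000429). It was 2.04-fold lower in VHL-KO/AKI than in VHL-KO kidneys (-1.03, SE 0.224, adjusted p = 0.00722). The difference of VHL-KO/AKI from AKI, 0.72 (interval 0.30 to 1.13), had an adjusted p of 0.0536. It passed without AKI 4 (adjusted p = 0.0287) and without VHL-KO/AKI 5 (0.90, adjusted p = 0.00339). With any other array left out it did not pass, and the adjusted p rose as high as 0.149.

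Ptger1 encodes EP1, which signals through calcium and is known from the collecting duct. Its level was 6.83, 6.54, 6.77, 6.49 and 5.57 in VHL-KO/AKI kidneys, and 6.11, 5.85, 5.77, 6.66 and 5.73 in AKI kidneys. It was 7.09, 6.90 and 6.59 in VHL-KO kidneys, against 7.95, 7.05 and 7.25 in Control kidneys. Both glycerol groups lay below all 3 Control arrays, and the other pairs of groups overlapped. Ptger1 was 2.62-fold lower in AKI than in Control kidneys (-1.39, SE 0.283, interval -1.99 to -0.79, adjusted p = 0.00201). No other comparison passed: VHL-KO/AKI differed from AKI by 0.41 (adjusted p = 0.398) and VHL-KO from Control by -0.56 (adjusted p = 0.7). The interaction of 0.97 (interval 0.12 to 1.83) had an unadjusted p of 0.0282 and an adjusted p of 0.356.

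Ptger2, for the remaining receptor EP2, was not in the member list. It stayed between 4.08 and 4.35 on all 16 arrays, near the dim end of the table, whose values began at 3.34.

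Marker genes of tubule segments were lower in AKI than in Control kidneys, as were Hpgd, Ptger3 and Ptger1. The mean over 5 thick ascending limb genes ran from 9.78 to 11.16 in VHL-KO/AKI, 9.26 to 11.17 in AKI, 11.57 to 11.71 in VHL-KO and 11.58 to 11.81 in Control kidneys. In AKI against Control, 4 of these 5 were lower, and in VHL-KO/AKI against AKI 1 was higher. The mean over 6 principal cell genes of the collecting duct ran from 8.66 to 9.55 in VHL-KO/AKI, 8.56 to 9.10 in AKI, 9.54 to 9.99 in VHL-KO and 9.56 to 10.02 in Control kidneys, with 4 of 6 lower in AKI than in Control and 1 higher in VHL-KO/AKI than in AKI. Of 6 proximal tubule genes, 5 were lower in AKI than in Control kidneys and none was called between VHL-KO/AKI and AKI. The same held for 2 of 3 distal convoluted tubule and 3 of 4 intercalated cell genes, with none called between VHL-KO/AKI and AKI. Over all tested genes, 14.9% were lower in AKI against Control and 2.48% higher in VHL-KO/AKI against AKI. In VHL-KO/AKI against VHL-KO, where Hpgd and Ptger3 were lower, 1 of 5 thick ascending limb, 2 of 6 principal cell and 3 of 6 proximal tubule genes were lower. So were 3 of 3 distal convoluted tubule and 2 of 4 intercalated cell genes. No gene of these lists was higher there, and 8.91% of all tested genes were lower. VHL-KO/AKI 5, low in Hpgd, Ptger3 and Ptger1, had the lowest values of its group for the thick ascending limb (9.78) and collecting duct (8.66) means. AKI 4 had the highest thick ascending limb mean of its group (11.17), and the highest Ptger1 (6.66), but its Ptger3 (7.08) and Hpgd (7.59) were within the range of the other 4. AKI 5, with the lowest thick ascending limb mean (9.26), had the highest Hpgd of the AKI arrays (7.68). The part of these markers in the Hpgd and receptor results was not tested.

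**Figure D3:**
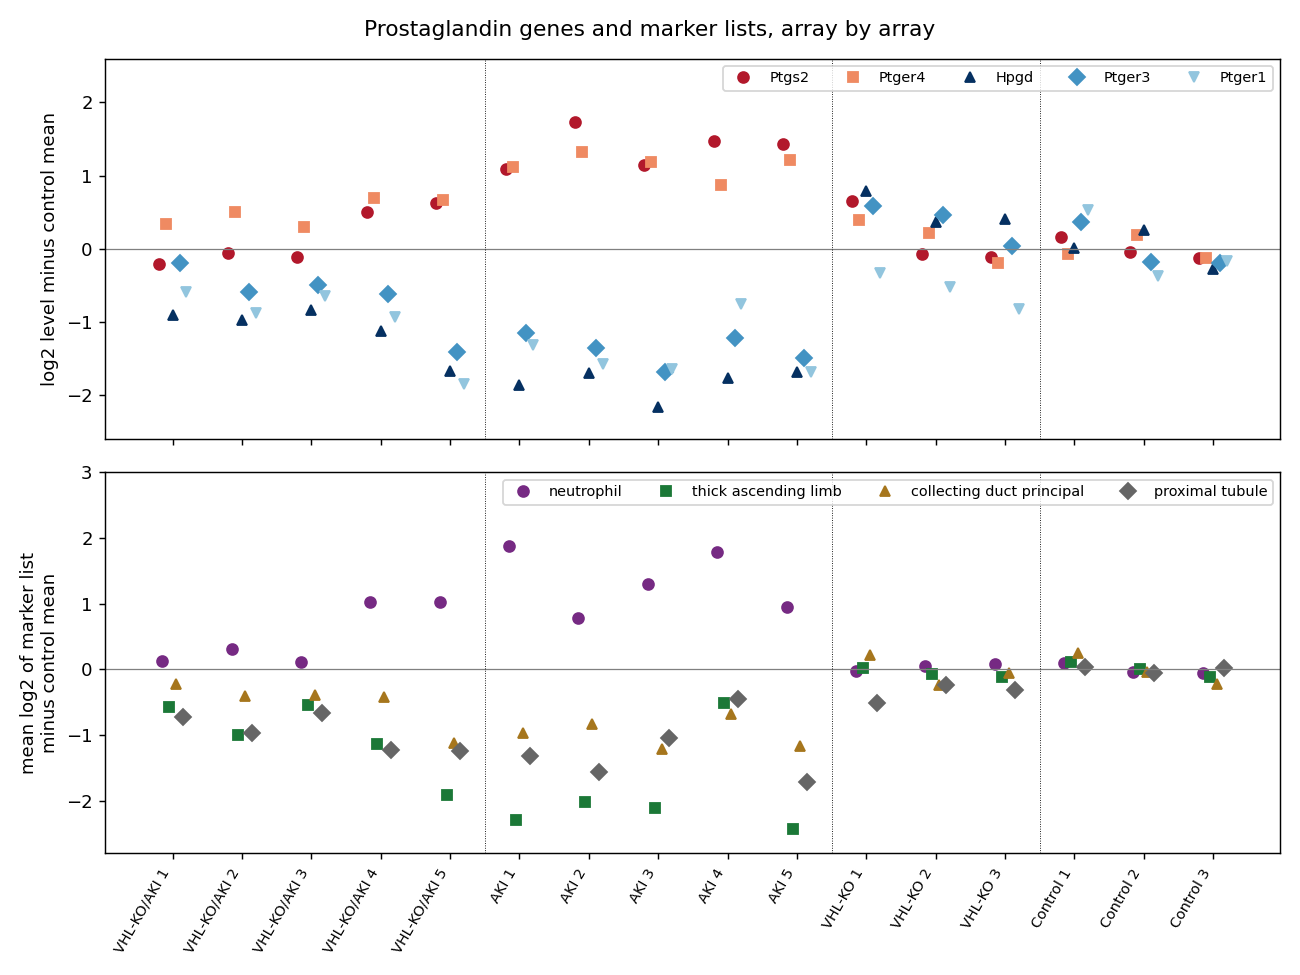
Per array, log2 level minus the Control mean of the 5 members that were called in AKI against Control (top) and of 4 marker lists (bottom), with dotted lines between groups. VHL-KO/AKI 5 has low Hpgd, Ptger3 and Ptger1 together with low thick ascending limb and collecting duct means, and AKI 4 has the highest thick ascending limb mean of the AKI arrays.

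Deletion without injury called no member. VHL-KO against Control kidneys gave 0 of 9 calls in limma, with 1 (Hpgd) at an unadjusted p under 0.05, where 0.527% of all tested genes were called (0.476% higher and 0.0502% lower) and 8.35% had an unadjusted p under 0.05. VHL-KO/AKI against VHL-KO kidneys gave 0 higher and 2 lower, Hpgd and Ptger3, where 13.6% of all tested genes were called (4.66% higher and 8.91% lower). The groups did not overlap for 5 of 9 members in AKI against Control (27.3% of all tested genes), 3 in VHL-KO/AKI against AKI (3.78%), 2 in VHL-KO/AKI against VHL-KO (24.3%) and 1 in VHL-KO against Control (17.2%). The median difference of the members was 0.19 in VHL-KO/AKI against AKI and -0.20 in AKI against Control, beside -0.01 and 0.02 over all tested genes. AKI arrays enter both of these comparisons, so they are not independent.

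The other genes of the pathway came from lists of 40, of which 37 were measured. In AKI against Control kidneys 4 were higher, 8 lower and 25 not called (median 0.02), so that 12 of 37 were called, beside 28.1% of all tested genes. In VHL-KO/AKI against AKI kidneys 2 were higher and none lower (median 0.05), beside 3.88% of all tested genes called, and both were terminal reductases of prostaglandin synthesis. In VHL-KO/AKI against VHL-KO kidneys 2 were higher (Ptgr1 and Zadh2) and 7 lower (Pla2g5, Tbxas1, Cbr1, Akr1c18, Tbxa2r, Alox12 and Cysltr2), beside 13.6% of all tested genes. In VHL-KO against Control kidneys limma called 0, beside 0.527% of all tested genes, with 5 at an unadjusted p under 0.05, beside 8.35%.

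Of 7 other prostanoid synthases, 2 were higher and 4 lower in AKI than in Control kidneys. This count, and those of the other lists below, stand beside 28.1% of all tested genes called in that comparison. Akr1c18, an aldo-keto reductase known to break down progesterone and to make prostaglandin F, had levels of 8.87, 7.55, 8.15, 8.04 and 7.37 in VHL-KO/AKI kidneys and 6.22, 6.09, 6.32, 7.38 and 6.21 in AKI kidneys. It was 10.91, 10.59 and 10.38 in VHL-KO kidneys, against 10.92, 11.31 and 10.36 in Control kidneys. Glycerol groups lay more than a full log2 unit below uninjured ones, and AKI 4 alone reached into the VHL-KO/AKI range. Akr1c18 was 21.4-fold lower in AKI than in Control kidneys (-4.42, SE 0.336, adjusted p = 1.86e-06) and 2.93-fold higher in VHL-KO/AKI than in AKI kidneys (1.55, SE 0.291, adjusted p = 0.0107). For Akr1c18, and for Cbr1 below, injury and the sex-linked signal cannot be told apart in AKI against Control. Differences refitted with a sex-linked covariate, given at the end, are for members only.

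Cbr1, a carbonyl reductase that turns prostaglandin E into prostaglandin F, showed the same order of glycerol groups. Its level was 8.94, 9.11, 9.28, 9.18 and 8.77 in VHL-KO/AKI kidneys, against 7.62, 8.61, 7.46, 7.82 and 8.08 in AKI kidneys. These 2 groups did not overlap. Cbr1 averaged 10.49 ± 0.23 in VHL-KO and 9.97 ± 0.47 in Control kidneys (SD, n = 3 each). It was 4.16-fold lower in AKI than in Control kidneys (-2.06, SE 0.237, adjusted p = 3.42e-05) and 2.20-fold higher in VHL-KO/AKI than in AKI kidneys (1.14, SE 0.205, adjusted p = 0.00834).

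Hpgds, the hematopoietic prostaglandin D synthase of mast cells and other immune cells, averaged 6.37 ± 0.39 in VHL-KO/AKI, 7.19 ± 0.87 in AKI, 5.49 ± 0.28 in VHL-KO and 5.42 ± 0.13 in Control kidneys (SD). It was higher in AKI than in Control kidneys (1.77, adjusted p = 0.00251), with AKI 4 lowest of its group at 5.84. The mean over 5 mast cell genes lay between 4.99 and 5.05 in AKI and 5.04 and 5.22 in Control kidneys, where dim probes lie. The part of these markers in the Hpgds result was not tested. Ptges3, a cytosolic prostaglandin E synthase also known as a chaperone partner, was higher in AKI than in Control kidneys too (0.60, adjusted p = 0.00339). Tbxas1, the thromboxane synthase, was lower (-0.70, adjusted p = 0.000349), and so was Prxl2b, a prostamide and prostaglandin F synthase (-0.36, adjusted p = 0.00977).

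Among 5 transport and breakdown genes, the reductase gene Ptgr1 was higher in AKI than in Control kidneys (1.03, adjusted p = 0.000287) and Ptgr2 lower (-1.01, adjusted p = 0.0168). Ptgr1 was also higher in VHL-KO/AKI than in VHL-KO kidneys (1.31, adjusted p = 0.000147), and so was Zadh2, another prostaglandin reductase gene (0.36, adjusted p = 0.0436), while Hpgd was lower there. Of 10 other phospholipase genes, Pla2g5, a secreted phospholipase, was the 1 called in AKI against Control, with -1.99 (adjusted p = 0.000323). Its mean was 6.75 ± 0.51 in VHL-KO/AKI, 6.26 ± 0.51 in AKI, 8.61 ± 0.42 in VHL-KO and 8.25 ± 0.32 in Control kidneys (SD).

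None of the 6 other prostanoid receptors passed in AKI against Control, where 1 had an unadjusted p under 0.05. Tbxa2r, the thromboxane receptor, was lower in VHL-KO/AKI than in VHL-KO kidneys (-0.49, adjusted p = 0.0246). Of 9 leukotriene and lipoxygenase genes, Alox15 was slightly higher in AKI than in Control kidneys (0.21, adjusted p = 0.0401), while Alox12 (-0.72, adjusted p = 0.000425) and the leukotriene receptor gene Cysltr2 (-0.59, adjusted p = 0.00523) were lower.

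**Figure D4:**
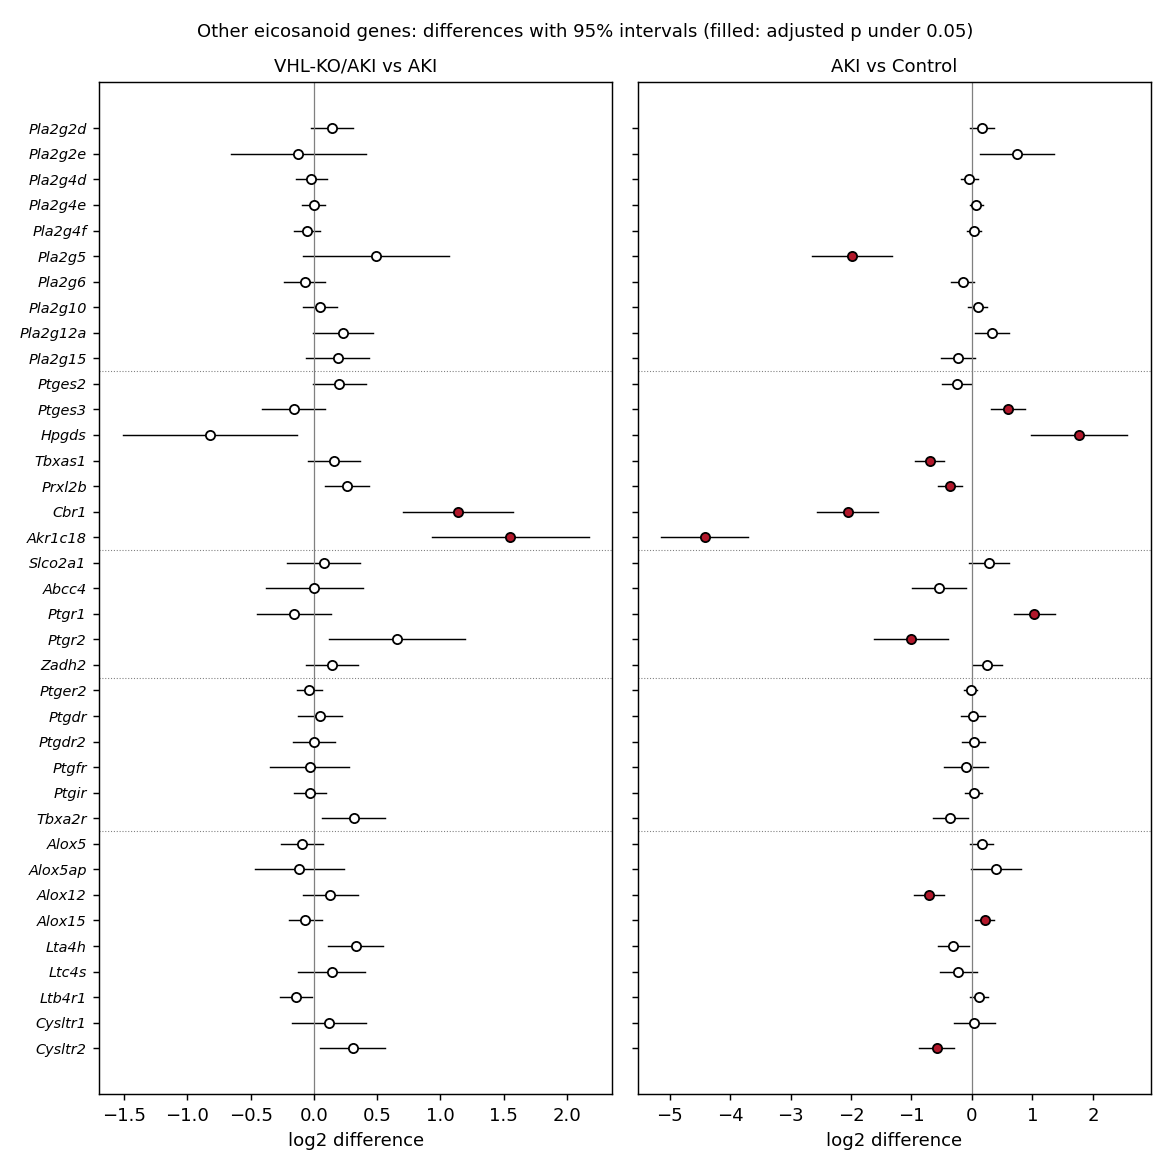
Log2 differences with 95% intervals of 37 other eicosanoid genes in VHL-KO/AKI against AKI (left) and AKI against Control (right), filled where the adjusted p is under 0.05, with dotted lines between the 5 lists. Akr1c18 and Cbr1 lie furthest left in AKI against Control and are the 2 filled points, right of 0, in VHL-KO/AKI against AKI.

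Across the 16 arrays, Hpgd varied most (SD 0.956), then Ptger3 (0.741), Ptgs2 (0.674), Ptger1 (0.640), Ptger4 (0.495), Ptges (0.307), Pla2g4a (0.273), Ptgds (0.252) and Ptgis (0.173). The genes most alike to Ptgs2 in pattern, by Pearson correlation over the 16 arrays, were Zbtb42 (0.916), Tsc22d2 (0.913), Arhgap11a (0.910), Dusp14 (0.908) and Hectd2 (0.907), and Ptger4 reached 0.885. Those most alike to Hpgd were Tbc1d4 (0.978), C2cd5 (0.974), Bbs2 (0.973), Colgalt2 (0.970) and Naaa (0.970), and Ptger3 reached 0.949. For Ptger3 they were Veph1 (0.972), Tbc1d4 (0.961), Igfbp5 (0.961), Zhx1 (0.960) and Acnat1 (0.960). The arrays share their groups, so these correlations mostly follow the group means and are descriptions.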

How the data were processed

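Per the labels, total RNA of halved kidneys was hybridised to 16 biotin-labelled arrays. The authors' deposited values are log2 levels; per the submitters' processing notes RMA and Partek 6.4 were used, with no record here of order, settings or genome build. The values ranged from 3.34 to 14.71 with array medians of 5.92 to 6.03. The number of arrays limits the precision.

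Of 35556 rows, 21789 had 1 gene symbol, 1621 several and 12146 none. The row with the highest mean was kept per symbol, giving 19938 genes. Groups came from the sample titles. limma 3.58.1 (R 4.3.3) fitted 1 mean per group with eBayes (12 residual degrees of freedom), Benjamini-Hochberg adjustment over all genes and a threshold of 0.05, with 95% intervals. The fit was tested on simulated data. The members, pathway lists, markers and alternatives were chosen with earlier results of these data known. Named genes were all members, the pathway genes called, Ptger2 as the remaining prostaglandin E receptor, checks of the labels, and the 5 genes most correlated with Ptgs2 and with the 2 most variable members (Gm, Rik, LOC and Olfr names left out). The labels call the arrays biological replicates. The p-values set each difference between groups against the spread of arrays within groups, taking arrays as independent. Cages and litters are not given, so that independence could not be checked. Alternatives changed the rows per gene, the filter, the scaling, the variance model, array weights, the groups fitted, a replicate block, a sex-linked covariate and the arrays kept.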

Additional observations from a re-analysis of the deposited data

Results flagged for a closer look

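Ptger1 in VHL-KO/AKI 5 was 5.57 on the log2 scale, while the other 4 arrays of its group lay between 6.49 and 6.83. The gap to its nearest neighbour was 0.732 of the group's range. It was the 1 value so far from its group among 18 combinations of member and 5-array group, and chance marks about 1 in 20 of such groups. The same array also had the lowest Hpgd (7.69) and Ptger3 (6.89) of its group.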

How the results depend on the processing

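No called member difference changed sign under any alternative run, while 49 uncalled ones did, and of 1206 values recomputed 1178 kept their side of the threshold. Ptgs2 and Ptger4 in VHL-KO/AKI against AKI kept their call throughout. A covariate of Xist minus 3 Y-linked genes, which nearly coincides with injury, ended every call of injury in limma. In AKI against Control it left 0 members and 0 genes in all, with 2 members and 712 genes at an unadjusted p under 0.05. In VHL-KO/AKI against VHL-KO it left 0 members and 0 genes, with 0 members and 359 genes at an unadjusted p under 0.05. The member differences called without the covariate kept their sign: in AKI against Control Ptgs2 was 2.28, Ptger4 1.57, Hpgd -1.01, Ptger3 -0.93 and Ptger1 -0.72, and in VHL-KO/AKI against VHL-KO Hpgd was -0.65 and Ptger3 -0.49, all at adjusted p = 1.0. Of the uncalled differences, Pla2g4a (0.40), Ptges (1.03) and Ptgds (0.25) changed sign in AKI against Control. In VHL-KO/AKI against VHL-KO, Ptgs2 (1.07), Ptges (1.24), Ptgds (0.39), Ptgis (-0.13) and Ptger1 (0.38) changed sign. The numbers in the titles did not pair arrays (correlations of deviations from -0.38 to 0.20). With the replicate block, 65 genes passed in VHL-KO against Control and 1 for the interaction, against 105 and 2, and Ptger3 passed in VHL-KO/AKI against AKI (adjusted p = 0.0158). The block changed no other member's call.

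Array weights called 6 members in VHL-KO/AKI against AKI, adding Ptger3 (adjusted p = 0.00657), Ptges (0.0407) and Ptger1 (0.0495), and 2 members for the interaction, Ptgs2 (0.0201) and Ptger4 (0.026). Genes called were then 319 in VHL-KO against Control, 2868 in VHL-KO/AKI against AKI, 4328 in VHL-KO/AKI against VHL-KO and 885 for the interaction. Fitting only the compared groups gave 223 genes in VHL-KO/AKI against AKI, against 774, and Hpgd missed the threshold (adjusted p = 0.0556); for the interaction all 4 groups are already fitted. Ptger3 passed in VHL-KO/AKI against AKI with dim genes removed (0.0344) and with trend and robust variance (0.0497). Ptger4 passed in VHL-KO/AKI against VHL-KO with quantile (0.0466) and cyclic loess scaling (0.0497). Centring gave 64 genes in VHL-KO against Control, the covariate 18. For the interaction, centring, quantile, cyclic loess and the covariate gave 0 genes in limma, with 2367, 2360, 2342 and 1732 at an unadjusted p under 0.05. In VHL-KO/AKI against VHL-KO the share of calls that were higher was 53.7% after centring, 46.5% after quantile and 45.4% after cyclic loess scaling, against 34.3%; the shift of the median gene was under 0.1 throughout. Leaving out Control 3 and AKI 4 together, chosen after seeing the data, kept the member counts at 5, 2 and 0 in AKI against Control, VHL-KO/AKI against VHL-KO and VHL-KO against Control. It gave 4 members (Ptger3 added, 0.035) and 2196 genes in VHL-KO/AKI against AKI, and 22 genes for the interaction. The causes were not tested.

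With each array left out in turn, members called ranged from 5 to 5 in AKI against Control, 2 to 4 in VHL-KO/AKI against AKI, 2 to 2 in VHL-KO/AKI against VHL-KO, 0 to 0 in VHL-KO against Control and 0 to 2 for the interaction. Genes called ranged from 4248 to 6811, 229 to 2384, 1683 to 3910, 34 to 235 and 0 to 620 in the same order. The highest counts in VHL-KO/AKI against AKI (2384), VHL-KO against Control (235) and the interaction (620) came without AKI 4, and the lowest in VHL-KO/AKI against AKI (229) without VHL-KO/AKI 1 and in VHL-KO against Control (34) without Control 3. Dim probes such as Ptger2 limit what a log2 difference can show.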
